A study of Mus musculus with 2 samples.

Results

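Transcripts of 10 genes around the transcription factor STAT5 were compared between cultures of immortalised mouse bone marrow cells with active MEF2C and without it. The genes were the factors Stat5a, Stat5b and Stat3, the feedback inhibitors Cish, Socs1, Socs2 and Socs3, the survival kinase gene Pim1, the cytokine gene Osm, and Csn2, which encodes the milk protein beta-casein. They were taken by gene name from the array's annotation, where 9 stood under these symbols and Csn2 under the older symbol Csnb. They made up 10 of 27912 gene names and 16 of 41174 probes. The genes were chosen by their known place in the pathway with the differences between these arrays already seen, so their values are a description and support nothing beyond themselves.

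Cytokine receptors such as those for IL3 and GM-CSF carry JAK kinases, which phosphorylate STAT5, and the receptor for IL6 acts in the same way mainly on STAT3. The phosphorylated factors enter the nucleus and bind DNA at sites of the form TTCNNNGAA. Among their best known target genes are Cish and the Socs genes, whose proteins act back on the receptors and kinases to damp the signal, so that the level of these transcripts is often used as a readout of recent signalling. In the mammary gland prolactin works through STAT5 on the beta-casein promoter, the setting in which STAT5 was first described as a mammary gland factor.

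The cells were M/E cells, bone marrow cells of the mouse immortalised with the leukaemia fusion gene MLL/ENL, and both cultures had the genotype M/E-Mef2c del/-, which per the labels leaves no functional Mef2c. The MEF2C-ASR culture carried the vector MYs-pMef2cASR, for a mutant Mef2c that does not bind histone deacetylases and is constitutively active. The control culture carried the empty vector MYs-iPAC. Both were selected with puromycin and grown with IL3, IL6 and GM-CSF at 10 ng/ml and SCF at 100 ng/ml, so ligands for STAT5 and STAT3 were present throughout. Cells taken 6, 24 and 48 h after seeding were pooled, and each culture gave 1 array, so the time course is lost and no difference has a replicate check.

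Values are processed signals, in linear intensity units, of 60-base oligonucleotide probes on Agilent arrays. A level is the log2 of the signal over the array's 75th percentile, and a difference is the MEF2C-ASR level minus the control level. A probe is called measured if both arrays read it well above background. With no replicates there is no test, and a gene is called higher or lower if it differs by at least 2-fold, which is 1 in log2. The scanner software's own error model gives most bright probes here an error of about 0.20 on a log2 difference, and that error leaves out the variation between cultures.

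Of 43379 spots, 29283 (67.5%) of the MEF2C-ASR array and 26054 (60.1%) of the control array were well above background. Such spots reached down to a level of -5.96 on the MEF2C-ASR array and -5.05 on the control array. Mef2c itself had a level of 0.67 in the MEF2C-ASR culture and -0.68 in the control culture, a difference of 1.34 from 1 measured probe that need not separate vector from endogenous transcripts. All 13 markers of haematopoietic and myeloid progenitor cells on the array were measured, with summed signals of 674532 in the MEF2C-ASR culture and 501010 in the control culture. Summed signals here and below are unscaled and take 1 probe a gene. That probe is the brightest on the control array, among the measured probes where a gene had any. The differences of all 13 were above 0, with a median of 0.50 and 2 at least 2-fold higher. Of all 16696 genes measured on both arrays, 44.9% had a difference above 0 and 1.75% were at least 2-fold higher. The 11 macrophage and neutrophil markers were all measured and had differences from 0.00 to 2.64, with 5 at least 2-fold higher and summed signals of 523288 in the MEF2C-ASR culture and 361038 in the control culture. In RNA of a whole culture, a change in the mix of cells and a change in the RNA of each cell cannot be told apart. What these markers contribute to the differences below was not tested.

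The inhibitor genes Socs3 and Cish were higher by at least 2-fold in the MEF2C-ASR culture, the factors were within 1.5-fold, and the probe of beta-casein was at background with MEF2C-ASR and bright in the control. Of the 10 genes, 9 were measured on both arrays and Csn2 was well above background on the control array alone. Socs3 and Cish were the 2 of the 9 measured that were at least 2-fold higher, where 1.75% of all 16696 measured genes were. None of the 9 was at least 2-fold lower, where 1.93% of all were. Differences were above 0 for 7 of the 9 and below 0 for Stat5a and Osm, and each of the 9 kept its sign under all 12 other settings of the processing. Of all measured genes 44.9% had a difference above 0. The median over the 9 was 0.54, against -0.03 over all measured genes. It was 0.50 over the 13 progenitor markers and 0.86 over the 11 macrophage and neutrophil markers. The members' shares and median describe genes picked with their differences seen.

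**Figure D1:**
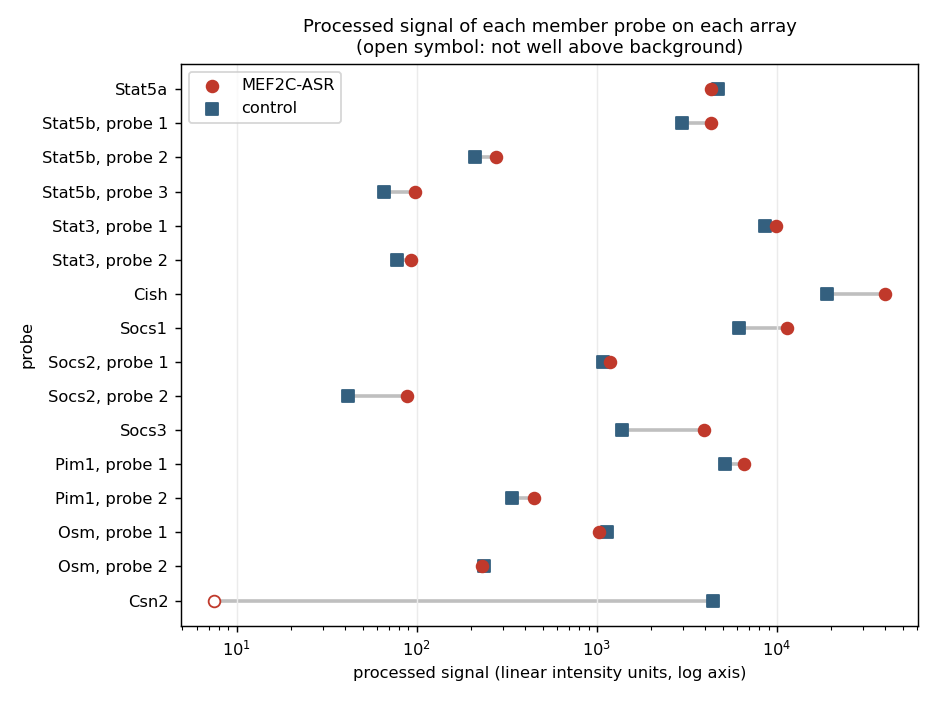
Processed signal (linear intensity units, log axis) of each of the 16 probes on the MEF2C-ASR array (circles) and the control array (squares), 1 array each, with an open symbol where the probe was not well above background. The widest gap is that of Csn2, with signals of 7.53 on the MEF2C-ASR array and 4445 on the control array, and the symbols of Stat5a and Osm lie close together.

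Sites of the form TTCNNNGAA were looked for in RefSeq promoters of the mouse build GRCm38.p6, each 250 bases before to 50 bases after a transcript's start. The 10 genes had 11 such promoters for 8 of them, and none for Socs2 and Osm. The pattern reads alike on both strands. It was present in the promoters of 3 genes, which were Cish, Socs3 and Csn2. These letters were not in the windows of Stat5a, Stat5b, Stat3, Socs1 and Pim1. A window follows the start of 1 transcript and can lie inside the annotated gene. Both windows of Stat5b, chr11:100850532-100850831 and chr11:100822521-100822820, lie inside its locus, chr11:100780731-100859004. The window of Socs3 also lies inside its locus, chr11:117966079-117970336. Both windows of Stat5a, chr11:100859406-100859705 and chr11:100860234-100860533, lie inside its locus, chr11:100859351-100885169. Of the 2 windows of Pim1, the one at chr17:29492835-29493134 lies inside its locus, chr17:29490785-29496111. Sequence outside these windows was not searched. The members were picked with their differences seen, so nothing is read from which of them hold the pattern. Of all 32851 promoters of this length 2726 (8.30%) held the pattern, and 150 (0.457%) held it 2 or more times, as that of Cish did. The promoters that hold the pattern are printed to show where it lies. The promoter of Csn1s1, the alpha casein gene next to Csn2, is added for comparison. Capitals mark matches to TTCNNNGAA and, in Csn2, also a match to a form with 4 spacer bases in place of 3. The positions on GRCm38.p6 are chr9:107296409-107296708 on the plus strand for Cish, chr11:117969317-117969616 on the minus strand for Socs3, chr5:87699376-87699675 on the minus strand for Csn2 and chr5:87665958-87666257 on the plus strand for Csn1s1.
Cish: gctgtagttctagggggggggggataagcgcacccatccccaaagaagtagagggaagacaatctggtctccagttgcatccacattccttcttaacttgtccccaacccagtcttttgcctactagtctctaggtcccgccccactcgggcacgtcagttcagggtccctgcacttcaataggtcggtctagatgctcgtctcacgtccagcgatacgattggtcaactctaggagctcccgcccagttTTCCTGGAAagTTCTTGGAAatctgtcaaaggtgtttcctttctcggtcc
Socs3: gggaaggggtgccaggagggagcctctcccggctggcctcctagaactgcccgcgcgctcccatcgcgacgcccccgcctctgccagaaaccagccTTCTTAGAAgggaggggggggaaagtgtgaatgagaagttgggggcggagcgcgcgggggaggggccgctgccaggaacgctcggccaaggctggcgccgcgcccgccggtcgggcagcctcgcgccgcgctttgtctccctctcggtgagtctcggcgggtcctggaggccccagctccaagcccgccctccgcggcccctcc
Csn2: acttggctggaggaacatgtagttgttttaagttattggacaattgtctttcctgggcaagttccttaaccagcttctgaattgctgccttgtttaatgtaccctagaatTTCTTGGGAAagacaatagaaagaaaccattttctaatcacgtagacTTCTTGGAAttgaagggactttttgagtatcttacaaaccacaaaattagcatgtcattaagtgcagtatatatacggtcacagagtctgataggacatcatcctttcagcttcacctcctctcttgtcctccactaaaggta
Csn1s1: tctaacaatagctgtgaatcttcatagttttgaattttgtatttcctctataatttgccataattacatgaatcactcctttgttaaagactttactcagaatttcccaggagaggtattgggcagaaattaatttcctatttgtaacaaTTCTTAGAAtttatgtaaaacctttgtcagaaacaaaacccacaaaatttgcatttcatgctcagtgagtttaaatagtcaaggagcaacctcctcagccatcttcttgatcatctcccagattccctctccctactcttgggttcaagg

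Counting the first transcribed base as 1, the matches in Cish were TTCCTGGAA at 1 to 9 and TTCTTGGAA at 12 to 20. The match in Socs3 was TTCTTAGAA at -154 to -146, counted from that transcript's start and inside the annotated Socs3 locus. Csn2 held TTCTTGGAA at -93 to -85, the same letters as the downstream match in Cish, and TTCTTGGGAA at -140 to -131. The form with 4 spacer bases was found in 2284 (6.95%) of all promoters. Csn1s1 held TTCTTAGAA at -100 to -92, the letters found in Socs3. A match is a description of the sequence, and binding was not measured.

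The factors themselves differed by less than 1.5-fold. Stat5a, Stat5b and Stat3 lie side by side on chromosome 11, with 346 bases between Stat5b and Stat5a and 1636 between Stat5a and Stat3 in the RefSeq annotation of GRCm38.p6. Stat5a had a signal of 4316 in the MEF2C-ASR culture and 4682 in the control culture, a difference of -0.08 that was within the error of 0.20. Stat5b, the close relative that is activated by the same receptors, had a difference above 0 on each of its 3 probes. Its brightest probe had signals of 4309 in the MEF2C-ASR culture and 2972 in the control culture, a difference of 0.57 with an error of 0.20. A second probe had signals of 277 in the MEF2C-ASR culture and 210 in the control culture (0.43, error 0.21). The remaining probe, designed on a cDNA clone, had 98.4 in the MEF2C-ASR culture and 66.2 in the control culture (0.61, error 0.27). The mean over the 3 probes was 0.54, or 1.45-fold. Each of the 3 Stat5b differences was above its error, and the Stat5a difference was not.

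Stat3, the factor downstream of IL6 receptors, allowed a direct look at spotting error, because its main probe was printed 10 times on each array. The 10 spots had signals from 9594 to 10008 with a median of 9900 on the MEF2C-ASR array, and from 8486 to 8984 with a median of 8617 on the control array. The lowest MEF2C-ASR spot was thus above the highest control spot. Their means were 9830 ± 156 on the MEF2C-ASR array and 8630 ± 140 on the control array (SD over 10 spots of 1 hybridisation, which are not replicates of the culture). Spot by spot the log2 difference was 0.22 ± 0.028 (SD), from 0.18 to 0.26, and the software's error for it was 0.20. A second probe from a cDNA clone had a signal of 93.3 in the MEF2C-ASR culture and 78.1 in the control culture, a difference of 0.29 with an error of 0.26. The files name it Stat3 and list it at chr11:100994187-100994246. That is nearer to the Stat5a probe, which ends at 100993928, than to the main Stat3 probe, which starts at 100997323. By strand it is listed on the minus strand, as is the main Stat3 probe, while the Stat5a probe is on the plus strand. Which transcript this cDNA clone probe reads was not tested. The gene mean over both probes was 0.26, and with spike-in scaling it was 0.12. The Stat3 difference thus exceeded the spread between spots, and variation between cultures was not measured.

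The feedback inhibitors Socs3, Cish and Socs1 had the largest differences of the measured members, and the place of Socs2 depended on a dim probe. Socs3, which binds the gp130 chain of IL6-type receptors and the JAK kinase beside it, had a signal of 3923 in the MEF2C-ASR culture and 1383 in the control culture. Its difference was 1.54 with an error of 0.20, or 2.91-fold higher, and it stayed past 2-fold under all 12 other settings (1.29 to 1.55). It ranked 95 from the highest of the 16696 measured genes. Of the 1727 genes within 0.5 of its mean log2 level, 24 (1.39%) were at least 2-fold higher. The value rests on 1 probe at chr11:118075211-118075270 on the minus strand, in the coordinates of the array files, for which no source used here gives a build. A further probe lay outside the rule, since it carries no gene symbol but is described in the files as similar to SOCS3. It is listed on the plus strand at chr11:118076389-118076448, and had a signal of 7931 in the MEF2C-ASR culture and 10332 in the control culture, a difference of -0.35. That probe was well above background on both arrays and ran against the Socs3 probe. Which transcript it reads was not tested.

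Cish, whose SH2 domain protein competes with STAT5 for docking sites on activated receptors, had a signal of 39827 in the MEF2C-ASR culture and 19008 in the control culture. It was 2.15-fold higher, with a difference of 1.10 and an error of 0.20. Its excess over the 2-fold line was smaller than that error, and with spike-in scaling the difference was 0.96, below 2-fold. Of the 547 genes within 0.5 of its mean log2 level, 8 (1.46%) were at least 2-fold higher. Cish ranked 233 from the highest difference. Its single probe is listed at chr9:107031313-107031372 on the plus strand.

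Socs1, an inhibitor that blocks the catalytic site of JAK kinases, stood just under the 2-fold line. It had a signal of 11355 in the MEF2C-ASR culture and 6168 in the control culture, a difference of 0.92 with an error of 0.20, or 1.89-fold. It was below 2-fold under all 12 other settings, from 0.78 with spike-in scaling to 0.93, and above 0 under each. Cish at 1.10 and Socs1 at 0.92 thus lie on opposite sides of the line while differing from each other by less than their errors. Socs1 ranked 347 from the highest difference.

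Socs2, which limits growth hormone signalling through STAT5b, had probes that disagreed. The probe on its RefSeq transcript had a signal of 1181 in the MEF2C-ASR culture and 1080 in the control culture, a difference of 0.16 within its error of 0.20. The probe from a cDNA clone had a signal of 88.7 in the MEF2C-ASR culture and 41.5 in the control culture, a difference of 1.13 with an error of 0.34. The gene mean of 0.65 is therefore carried by the dim probe, and with the brightest probe in its place Socs2 stood at 0.16. The dim probe's spot lay at row 174 and column 2. A patch of 7 spots with a local background over 100 lay at rows 177 to 182 and columns 2 to 3 of the control array, with 0 such spots on the MEF2C-ASR array. The local background of the dim spot itself was 37 on the MEF2C-ASR array and 40 on the control array, and the part of the patch in its difference was not tested.

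**Figure D2:**
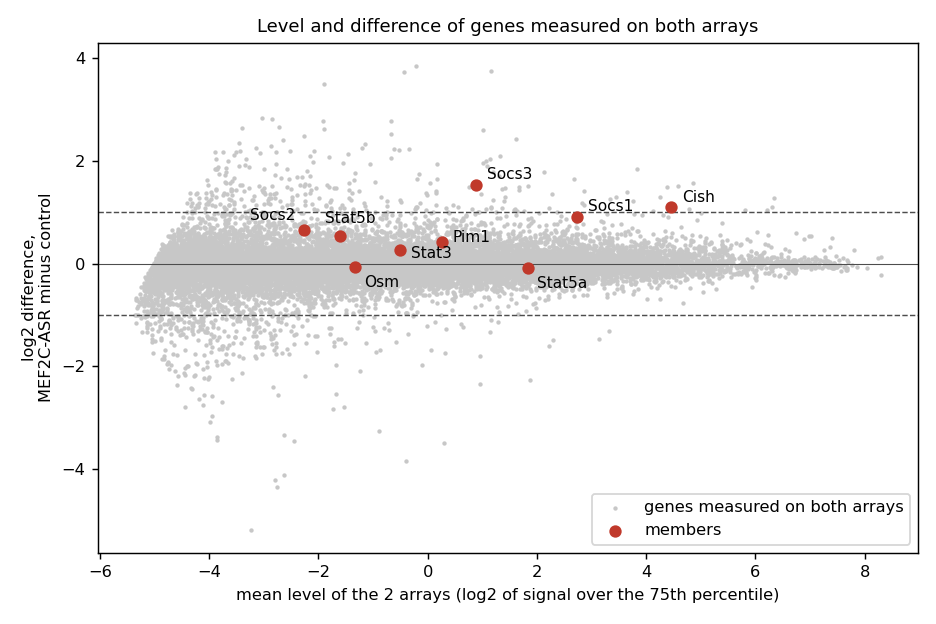
Log2 difference (MEF2C-ASR minus control) against the mean level of the arrays (log2 of signal over the 75th percentile) for the 16696 genes measured on both, with the 9 measured members in red and dashed lines at 2-fold. Socs3 at 1.54 and Cish at 1.10 lie above the upper line, Socs1 at 0.92 just under it, and Stat5a and Osm near 0.

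Pim1 and Osm, both known target genes of STAT5 in blood cells, were within 1.5-fold. Pim1, a kinase that promotes cell survival, had signals of 6582 in the MEF2C-ASR culture and 5169 in the control culture on its RefSeq probe, a difference of 0.38 with an error of 0.20. A cDNA clone probe, listed on the opposite strand to the RefSeq probe, had 445 in the MEF2C-ASR culture and 337 in the control culture (0.44, error 0.21). The probes were close to each other in difference and the gene mean was 0.41, or 1.33-fold. Osm, the IL6 family cytokine oncostatin M, had signals of 1029 in the MEF2C-ASR culture and 1146 in the control culture on its brighter probe (-0.12, error 0.20). Its other probe had 230 in the MEF2C-ASR culture and 236 in the control culture (-0.01, error 0.21). Both Osm differences were within their errors.

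**Figure D3:**
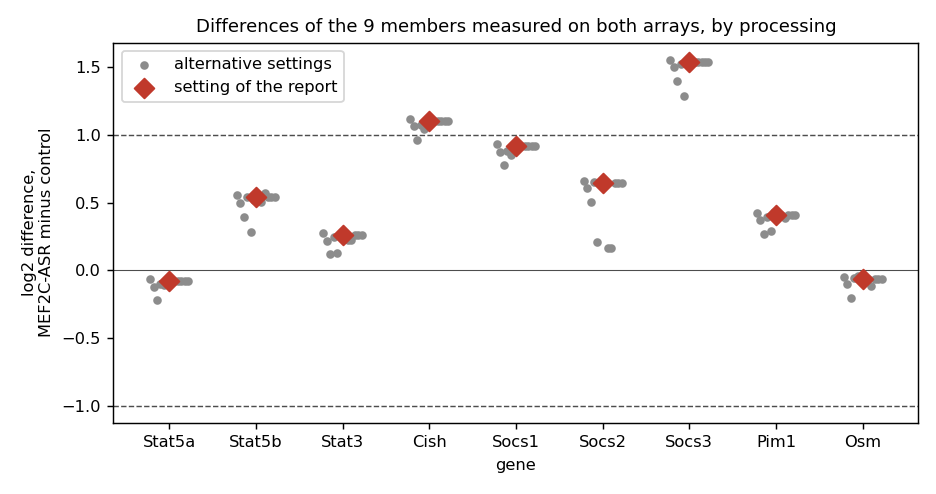
Log2 difference (MEF2C-ASR minus control) of the 9 members measured on both arrays, as reported (diamonds) and under the alternative settings (grey points), with dashed lines at 2-fold. Socs3 lies above the upper line in every setting, Cish falls to 0.96 in 1 of them, and Socs2 falls to 0.16 where its dim probe is left out.

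Csn2 differed from the inhibitors in direction and in size. Its single probe, listed at chr5:87629506-87629565 on the minus strand, had a signal of 7.53 in the MEF2C-ASR culture and 4445 in the control culture. The MEF2C-ASR value was not well above background (error of the signal 4.16), and the control value was far above it (error 445). Set against -5.96, the dimmest level that was still well above background with MEF2C-ASR, the control level makes Csn2 at least 217-fold lower with MEF2C-ASR, a bound of -7.76 on the log2 scale. It was the largest bound among the 191 genes well above background on the control array alone. Of those 191 genes 186 (97.4%) had a bound of at least 2-fold, so crossing 2-fold by a bound says little for a gene of this class. Of the 5539 probes with a control signal at least as high as that of Csn2, its own was the only one not well above background on the MEF2C-ASR array.

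The control spot of Csn2 carries a flag of the scanner software, set because its local background was an outlier among the local backgrounds of the array. That background was 46 on the MEF2C-ASR array and 47 on the control array, so the flagged value differed little between arrays. In the 48 spots within 3 rows and columns, the control array's local backgrounds ran from 35 to 52 and 4 spots had a background flag. The 31 of them that were measured had a median difference of -0.02, from -0.87 to 0.74, and those not measured on both arrays have no difference here. The part of the spot's background in the Csn2 difference was not tested. Leaving out all spots with such a flag removes Csn2 and leaves it without a value. With normexp background correction at an offset of 50, which lifts dim signals, the bound was -4.15.

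The probes of the other casein genes were at background in both cultures, and with 1 Csn2 probe the data do not show whether it reads Csn2 alone. On chromosome 5 the casein genes lie in a cluster around Csn2. Csn1s1, whose probe lies at -10.4 kb, had signals of 9.26 in the MEF2C-ASR culture and 10.0 in the control culture. The 2 probes of Csn1s2b, at 122 and 125 kb, had 9.09 and 4.19 in the MEF2C-ASR culture and 31.7 and 7.81 in the control culture. Csn1s2a at 96.0 kb had 4.37 in the MEF2C-ASR culture and 8.11 in the control culture, and Csn3 at 233 kb had 4.26 in the MEF2C-ASR culture and 7.82 in the control culture. None of these casein probes was well above background on either array. Csn1s1 and Csn1s2a also carry a TTCNNNGAA match in their promoters, and their probes were at background in both cultures.

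**Figure D4:**
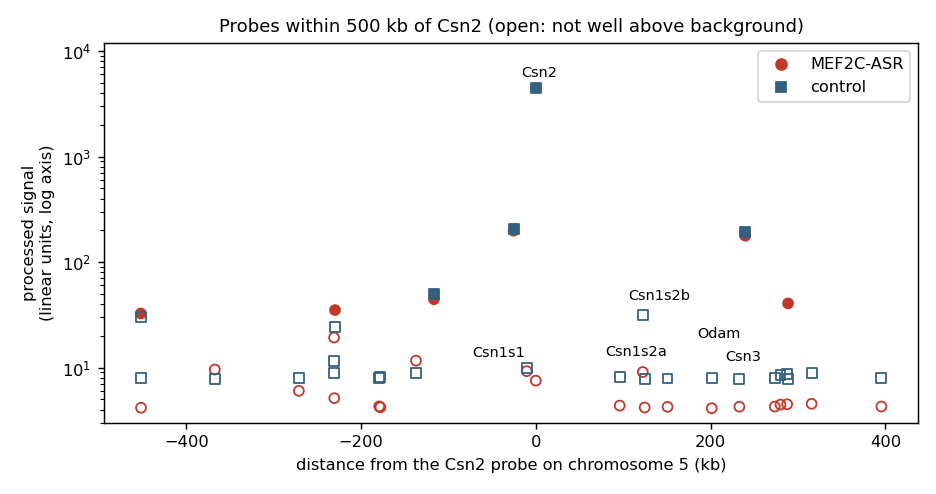
Processed signal (linear intensity units, log axis) of the 27 probes within 500 kb of the Csn2 probe on chromosome 5, against distance in kb, on the MEF2C-ASR array (circles) and the control array (squares), with open symbols for probes not well above background. Csn2 on the control array, at 4445, stands above every other probe in the window, while the labelled casein genes lie at background on both arrays.

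Of the 10 milk protein and casein cluster genes on the array besides Csn2, 3 were measured and 7 were at background on both arrays. Wap, the whey acidic protein gene, which prolactin also controls in the mammary gland, was named after its value was seen. It had a signal of 132 in the MEF2C-ASR culture and 85.4 in the control culture, on 1 measured probe of 2. Its difference was 0.67, in the other direction from Csn2, at a level where the spotting SD was 0.22. Lalba, which encodes alpha-lactalbumin, had 274 in the MEF2C-ASR culture and 294 in the control culture (-0.06). Xdh, the xanthine dehydrogenase of milk fat globules that other tissues also express, had 1707 in the MEF2C-ASR culture and 1884 in the control culture on its brightest probe, with a gene mean of -0.11. Of 11 mammary and other epithelial markers 8 were measured, and Epcam and Krt19 were at background on both arrays. Summed over all 11, measured or not, with 1 probe a gene and no scaling, the signals were 1484 in the MEF2C-ASR culture and 1350 in the control culture. Wap and Lalba are also in that list. The median over the 8 was 0.00 and 3 of them lay above 0. Named after their values were seen, Cdh1 (1.43) and Krt5 (1.02) were the highest and Krt8 (-0.44) and Krt14 (-0.36) the lowest. The part of such cells in the Csn2 difference was not tested.

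By the distance between their log2 levels on the 2 arrays, the genes most like Csn2 were Cyp2a5 (0.50), Tspan8 (2.89) and Cyp2a4 (3.02). Cyp2a5, a cytochrome of the liver and nasal mucosa, had signals of 7.76 in the MEF2C-ASR culture and 3171 in the control culture. Tspan8, a tetraspanin, had 21.8 in the MEF2C-ASR culture and 816 in the control culture. Cyp2a4, a close copy of Cyp2a5, so that which copy each probe reads is uncertain, had 87.6 in the MEF2C-ASR culture and 1430 in the control culture. Its distance was taken from its gene levels, -4.84 in the MEF2C-ASR culture and 0.14 in the control culture. The MEF2C-ASR signal given here corresponds to a higher level than that. Likeness over 2 arrays describes little more than a bright control signal beside a dim MEF2C-ASR signal.

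Receptors and kinases upstream of STAT5 were examined next, from lists chosen with earlier results of these data known. All 4 JAK kinases had differences above 0, with a median of 0.44, and none was past 2-fold. Jak1, which serves the IL6-type and interferon receptors, had signals of 11931 in the MEF2C-ASR culture and 7786 in the control culture on its brighter probe, and a gene mean of 0.58. Tyk2 had 3530 in the MEF2C-ASR culture and 2927 in the control culture (0.31). Jak2, the kinase of the IL3 and GM-CSF receptors, named after its value was seen, stood at 0.76 with 3338 in the MEF2C-ASR culture and 2025 in the control culture.

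Of 27 receptor genes 22 were measured, with a median difference of 0.18 (0.04 with spike-in scaling). Il10ra, the ligand-binding chain of the STAT3-activating IL10 receptor, was the only one at least 2-fold higher, with signals of 1338 in the MEF2C-ASR culture and 600 in the control culture (1.19; 0.83 with normexp). Ghr, the growth hormone receptor, which signals through JAK2 and STAT5, was lower on all 5 of its probes, with probe differences from -1.66 to -1.42. Its brightest probe had a signal of 1148 in the MEF2C-ASR culture and 3712 in the control culture, and the gene mean was -1.55 (-0.97 with normexp). Lifr, the receptor chain for leukaemia inhibitory factor and oncostatin M, had 85.3 in the MEF2C-ASR culture and 181 in the control culture on its 1 measured probe (-1.05; -0.38 with normexp, and also within 2-fold with all probes kept). Osmr, Il7r, Il5ra and Lepr were at background on both arrays. The receptor for prolactin, Prlr, differed by 0.00 on 1 measured probe of 3. The 3 receptors past 2-fold, of 22 measured, were 1 higher and 2 lower. Of all measured genes 1.75% were at least 2-fold higher and 1.93% at least 2-fold lower.

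Among ligands, 13 of the 14 listed were on the array and 5 were measured, with a median of -0.21 and none past 2-fold. The brightest, Cntf, differed by 0.00 and Thpo, thrombopoietin, by -0.01. Il3 and Csf2, which encode the IL3 and GM-CSF that the medium supplied, were at background on both arrays.

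Further STAT and SOCS genes were within 2-fold. Stat2, an interferon factor, had a signal of 1314 in the MEF2C-ASR culture and 1427 in the control culture, a difference of -0.08. Stat4, a factor of IL12 signalling named after its value was seen, had 1365 in the MEF2C-ASR culture and 813 in the control culture, a difference of 0.78. Socs4 to Socs7, which are less tied to cytokine induction than Cish and Socs1 to Socs3, lay between -0.07 and 0.17 with a median of 0.00 (-0.14 with spike-in scaling). Socs5 differed by 0.17 and Socs4 by 0.04. The 4 inhibitors among the members, at 0.65 to 1.54, lay above the highest of these 4 relatives, except that Socs2 at its brightest probe, 0.16, did not. Both sets were chosen with results of these data known.

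The other inhibitors of the pathway, 12 measured phosphatases, PIAS proteins and adaptors, had a median of 0.05 (-0.09 with spike-in scaling) and none past 2-fold. Ptpn1, the phosphatase PTP1B that acts on JAK2 and TYK2, had signals of 61509 in the MEF2C-ASR culture and 43122 in the control culture (0.55), and Ptpn11, the phosphatase SHP2, differed by 0.04. The relatives of Pim1 went the other way, with Pim2 at -0.24 and Pim3 at -0.36. Pim3 had a signal of 1070 in the MEF2C-ASR culture and 1409 in the control culture, and Pim2 had 457 in the MEF2C-ASR culture and 538 in the control culture on its brightest probe.

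Further targets of the factors were mostly within 2-fold. Of 15 other known STAT5 target genes 14 were measured, with a median of 0.13 (-0.01 with spike-in scaling) and 10 above 0. Bcl6, a transcriptional repressor that STAT5 is known to hold down, was the only one at least 2-fold higher, with signals of 630 in the MEF2C-ASR culture and 142 in the control culture (2.19; 1.06 with normexp). Its spot carries a background flag, so it has no value where such spots are left out. Of 14 other known STAT3 target genes 13 were measured, with a median of 0.36 and 9 above 0. The acute phase gene Saa3 was the only one at least 2-fold higher, with signals of 5559 in the MEF2C-ASR culture and 1751 in the control culture (1.70). Each list thus had 1 member at least 2-fold higher and none at least 2-fold lower, beside 1.75% and 1.93% of all measured genes.

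**Figure D5:**
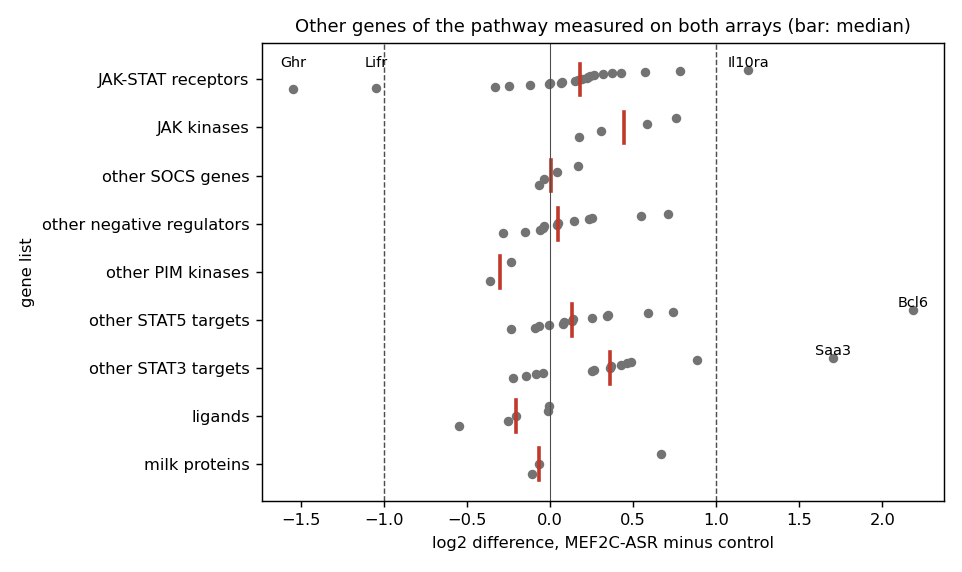
Log2 difference (MEF2C-ASR minus control) of the measured genes in 9 lists around the pathway (points), with the median of each list as a bar and dashed lines at 2-fold. Medians run from -0.30 for the other PIM kinases to 0.44 for the JAK kinases, and Ghr, Lifr, Il10ra, Bcl6 and Saa3 are the 5 genes past 2-fold.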

How the data were processed

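Each group is 1 Agilent array with pooled total RNA of 3 harvests, labelled with Cy3 as amplified cRNA. The authors deposited linear intensity values which, per the file headers, Agilent Feature Extraction 9.5.1.1 made by background subtraction with spatial detrending, multiplicative detrending and surrogates for dim spots, with no normalization between arrays. Both arrays shared a slide and a scan, per the file headers. The deposited value table equals the processed signals (largest relative difference 0), so its scale is linear and uncentred.

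Log2 levels were taken over each array's 75th percentile of non-control spots (1240 for MEF2C-ASR, 1272 for control). Control and feature-outlier spots were left out, spots of 1 probe averaged, and a gene was the mean of its measured probes (well above background and unsaturated on both arrays; 0 spots were saturated). A gene well above background on 1 array alone was given a bound, set against the other array's dimmest level still well above background. Spotting error came from those of the 245 probes printed 10 times whose spots were all well above background on both arrays. The spotting SD of a log2 difference was 0.13. By level it was 0.22 under -2 (47 probes), 0.09 from -2 to 0 (22 probes) and 0.06 above 0 (75 probes). These errors leave out variation between cultures, and the number of arrays limits the precision.

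The members and lists were chosen with earlier results of these data known. Named are all members, in each list up to 4 genes at least 2-fold apart or else the 2 of highest level, and the 3 genes nearest to Csn2. No test was possible with 1 array a group. The steps were tested on simulated arrays. The alternatives were other scalings, background corrections, filters on dim or flagged spots, probe summaries and probe names (12 settings). Python 3.11.15, numpy 2.4.6, pandas 2.3.3, matplotlib 3.10.9, R 4.3.3 and limma 3.58.1 were used. Old symbols and promoters came from RefSeq tables of GRCm38.p6. Some listed genes and the summaries that need them are not reported here. Exon and UTR placement of the probes was not analysed here.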

Additional observations from a re-analysis of the deposited data

How the results depend on the processing

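With 2 arrays, the direction of every member measured on both held under all 12 other settings. The members' 2-fold calls held too, except that with spike-in scaling, which moves the median of all genes to -0.17 in place of -0.03, Cish was below 2-fold and 1 member was higher in place of 2. With background-outlier spots left out 0 members were lower in place of 1, because Csn2 then has no value. Among all 16696 measured genes, 292 were higher and 322 lower as reported, 219 and 439 with spike-in scaling, and 76 and 36 with normexp. With all probes kept, dim ones included, 827 (2.96%) of 27912 genes were higher and 1023 (3.67%) lower. With the brighter probes alone, 204 (1.61%) of 12638 genes were higher and 109 (0.86%) lower. Higher genes were 47.6% of the calls as reported, 33.3% with spike-in scaling, 67.9% with normexp and 65.2% with the brighter probes. Of the members' single values under these settings, 102 moved by less than the spotting SD of 0.13, 17 by more, and 0 turned direction. No paired analysis was possible because each group has 1 array, and for the same reason no replicate could be left out. Signal over background limits Csn2 to a bound and makes the dim probes of Socs2, Stat5b and Stat3 the least certain.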

Other observations

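Markers of lineages beyond the myeloid cells were measured in part. The summed signals below cover all genes of a list, measured or not. Of 9 T and NK lineage markers 5 were measured. The sum over the 9 was 2088 in the MEF2C-ASR culture and 2005 in the control culture. Differences in that list ran both ways, as in Lck, with signals of 586 in the MEF2C-ASR culture and 989 in the control culture, and Nkg7, with 857 in the MEF2C-ASR culture and 375 in the control culture. Of 6 B lineage markers 2 were measured, and the sum over the 6 was 424 in the MEF2C-ASR culture and 349 in the control culture. Of 8 stromal and endothelial markers 4 were measured. The sum over the 8 was 730 in the MEF2C-ASR culture and 1053 in the control culture. Among the 8, Pdgfrb had 23.4 in the MEF2C-ASR culture and 83.8 in the control culture (-1.81). Lum, like Csn2 well above background on the control array alone, had 18.4 in the MEF2C-ASR culture and 225 in the control culture. These signals of Lum, a bound of -3.46, are part of the sums. These genes were named after their values were seen. Their defining genes Cd3g, Ebf1, Cdh5 and Kdr were at background on both arrays. What these markers contribute to the differences of Csn2 and of the inhibitors was not tested.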
